A study of Mus musculus with 20 samples.

Results

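Wnt3, Wnt5a, Wnt5b, Wnt8a and Wnt9a, which encode secreted Wnt ligands, and Axin2, Sp5, Lef1, Nkd1 and Tcf7, which encode transcription factors and feedback regulators of the pathway, were taken by name as 10 of the 35896 genes with summed counts. Polyadenylated RNA had been sequenced from TKO and WT cells of ES-E14TG2a, a line of mouse embryonic stem cells, kept in serum and LIF on gelatin (D0) or taken through 2, 4, 6 or 8 days of differentiation to neural progenitor cells on laminin in plain N2B27 medium. The groups were TKO D0, D2, D4, D6 and D8 and WT D0, D2, D4, D6 and D8, with 2 biological replicate libraries each and 20 libraries in all. The labels do not say which genes TKO lacks, whether TKO is 1 clone, or whether the replicates came from separate cultures, so p-values measure the spread between these libraries. No Wnt protein or Wnt inhibitor is named in the protocols for either genotype. All 10 genes passed the filter on low counts. They were chosen with earlier results of these data known, so the number of them that passed is not independent of that choice.

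A Wnt protein binds a Frizzled receptor together with an Lrp co-receptor at the cell surface. In the canonical branch this stops a complex built on Axin and Apc from marking beta-catenin for destruction, and beta-catenin then enters the nucleus and switches DNA-bound TCF and LEF factors, which otherwise repress, to activation. Axin2, Nkd1 and Sp5 are widely used readouts of that branch, and each of them also dampens it. In mouse embryonic stem cells the canonical branch is known to favour self-renewal, in the embryo Wnt3 is needed for the primitive streak, and posterior identity of neural tissue depends on Wnt signals, whereas Wnt5a acts mainly through beta-catenin-independent branches.

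Levels are given in CPM, that is per 1e+06 counts of a TMM-scaled library, and changes are log2 fold changes with their standard error from edgeR's quasi-likelihood test across 18545 genes. The threshold was an adjusted p of 0.05 (Benjamini-Hochberg). Levels of different genes are compared only in TPM, which corrects for transcript length. TPM was summed over all transcripts of a gene, so 1 without a coding region and with few counts can hold much of it. In WT D8 replicate 1, Wnt5a-204 held 37.1% of the Wnt5a TPM on 2.71% of its counts. In WT D6 replicate 2, Lef1-208 held 56.6% of the Lef1 TPM on 6.64% of its counts. Summed CPM of a gene list is not corrected for length and is compared only between groups. Total counts per library ran from 26015282 to 38074768, and 20115 to 22156 genes had a count. Replicates differed most in WT D0, where the chi-square between their counts was 27.19 per degree of freedom, against 2.883 to 10.57 in the other groups. Dnmt1, which encodes the maintenance DNA methyltransferase, lay between 74.8 and 96.7 CPM in the 10 TKO libraries and between 293 and 484 CPM in the 10 WT libraries, without overlap.

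Promoter sequences from RefSeq (GRCm38.p6) are shown for 3 members. Axin2 and Wnt5b had nearly parallel levels over the libraries, and Wnt5b has several annotated starts. Among the 8 members with a window, only Sp5 and Wnt5b had a match to a TCF motif searched here. Each window runs from 250 bases before the start to 50 after it. The motifs searched on both strands were CTTTGAA and CTTTGAT, shown in capitals, which do not overlap each other on a strand. Other forms of the TCF motif were not searched, and no window was found for Wnt5a or Wnt8a. Of all 32817 windows, 8.65% held a match, as did 2 of the 14 windows found for 8 members. A match is a string of letters and not a measured binding site.
Sp5, chr2:70474673-70474972, plus strand: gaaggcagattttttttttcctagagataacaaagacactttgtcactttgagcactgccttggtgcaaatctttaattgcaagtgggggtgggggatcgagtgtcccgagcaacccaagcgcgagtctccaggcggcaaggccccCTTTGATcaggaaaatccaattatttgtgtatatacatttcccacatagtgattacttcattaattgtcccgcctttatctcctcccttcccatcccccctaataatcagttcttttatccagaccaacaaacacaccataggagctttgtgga
Wnt5b, start nearer the coding region, chr6:119449337-119449636, minus strand: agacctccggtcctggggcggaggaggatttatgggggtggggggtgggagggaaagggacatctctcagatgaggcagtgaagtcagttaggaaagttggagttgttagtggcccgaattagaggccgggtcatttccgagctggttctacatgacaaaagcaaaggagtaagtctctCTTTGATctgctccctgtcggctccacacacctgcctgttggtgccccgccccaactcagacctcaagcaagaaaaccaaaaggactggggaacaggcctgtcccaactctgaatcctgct
Wnt5b, distal start, chr6:119544298-119544597, minus strand: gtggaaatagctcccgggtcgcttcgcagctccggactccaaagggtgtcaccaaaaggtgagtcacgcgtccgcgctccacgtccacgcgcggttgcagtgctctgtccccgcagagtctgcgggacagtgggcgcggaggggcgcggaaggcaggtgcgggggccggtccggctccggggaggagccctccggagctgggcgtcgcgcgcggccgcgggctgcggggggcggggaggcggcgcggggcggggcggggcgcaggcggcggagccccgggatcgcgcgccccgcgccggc
Axin2, chr11:108920099-108920398, plus strand: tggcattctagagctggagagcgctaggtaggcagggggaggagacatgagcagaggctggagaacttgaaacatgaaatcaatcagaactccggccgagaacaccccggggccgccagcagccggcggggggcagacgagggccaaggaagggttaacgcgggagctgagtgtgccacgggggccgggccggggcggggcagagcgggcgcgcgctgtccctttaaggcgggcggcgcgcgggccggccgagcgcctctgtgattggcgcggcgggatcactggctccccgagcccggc
The motif began 104 bases before the start of Sp5 and 71 bases before the nearer start of Wnt5b. CpG dinucleotides, the sites of DNA methylation, numbered 6 in the Sp5 window, 7 in the nearer Wnt5b window, 47 in the distal Wnt5b window and 31 in the Axin2 window, against a median of 7 over all windows. Methylation itself was not measured in these files.

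Wnt8a, a ligand that acts through beta-catenin and is known from the primitive streak and early posterior embryo, moved in a short pulse. In TKO cells it measured 0.104 and 0 CPM at D0, 19.9 and 20.5 at D2, 53.7 and 46.4 at D4, 0.435 and 0.316 at D6, and 3.11 and 5.33 at D8. In WT cells it measured 0.0638 and 0.325 CPM at D0, 5.58 and 4.31 at D2, 94.7 and 117 at D4, 0.0909 and 0.0331 at D6, and 0.541 and 0.39 at D8. The pulse was present in both genotypes, and the TKO libraries were above the WT libraries at D2, below them at D4, and above them again at D6 and D8, with no overlap on any of these days.

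The D2 difference was a log2 change of 2.04 ± 0.20 (adjusted p = 6.35e-07), and the D4 difference was -1.08 ± 0.16 (adjusted p = 7.09e-05). The step between D2 and D4 was 2.48-fold in TKO cells and 21.6-fold in WT cells, and the interaction of genotype with that step was -3.12 ± 0.26 (adjusted p = 6.75e-07). At D8 the TKO libraries were 9.06-fold above the WT libraries (log2 change 3.18 ± 0.35, adjusted p = 3.13e-07). The D6 difference, 2.51 ± 0.94 (adjusted p = 0.0397), rests on 15 and 9 counts in TKO libraries and 3 and 1 counts in WT libraries, and it did not pass without any 1 of those 4 libraries (log2 2.02 to 3.37, adjusted p 0.0647 to 0.187). At D0 the gene had 3 and 0 counts in TKO libraries and 2 and 10 in WT libraries, a ratio of 0.277 with a 95% counting interval of 0.0502 to 1.03 (adjusted p = 0.256), so a difference was not detectable at this depth.

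Wnt5a, the ligand of planar polarity and calcium signalling, ended lower in TKO cells. In TKO cells it measured 2.02 and 1.72 CPM at D0, 5.73 and 5.7 at D2, 3.72 and 4.3 at D4, 3.3 and 3.3 at D6, and 6.92 and 7.9 at D8. In WT cells it measured 2.1 and 1.59 CPM at D0, 5.15 and 5.27 at D2, 2.04 and 2.58 at D4, 4.73 and 4 at D6, and 15.6 and 14.3 at D8. Both genotypes thus had a peak at D2 and a second, higher level at D8, and the WT dip between them fell at D4. TKO libraries were higher at D4 (log2 change 0.79 ± 0.17, adjusted p = 0.00167) and lower at D8 (-1.01 ± 0.14, adjusted p = 4.78e-06). The D4 call did not pass with counts from length-scaled TPM (log2 0.64, adjusted p = 0.0646). Its interaction between genotype and the D0-to-D8 change was -1.03 ± 0.24 (adjusted p = 0.00153).

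Wnt3, the ligand required for the primitive streak in the mouse embryo, was the only member with no count in a whole group. TKO D0 libraries had 0 and 0 counts and WT D0 libraries had 24 and 11, so the level was at least 10.5-fold lower in TKO cells, taking 3 counts over the group as the floor (adjusted p = 8.19e-05). This bound was 6.67-fold without WT D0 replicate 1, 14.3-fold without WT D0 replicate 2, and 5.13-fold and 5.39-fold without TKO D0 replicate 1 or 2, where 3 counts weigh on 1 library. On the later days it lay between 0.521 and 4.93 CPM in TKO libraries and between 0.697 and 3.91 CPM in WT libraries. It increased with time in both genotypes, reaching 4.27 and 4.93 CPM in TKO D8 libraries, at least 86.3-fold above TKO D0 (42.1-fold and 44.2-fold without TKO D0 replicate 1 or 2), and 3.36 and 3.06 CPM in WT D8 libraries, 2.50 ± 0.32 on the log2 scale above WT D0. No later day passed the test between genotypes, and at D8 the log2 change was 0.52 ± 0.26 (adjusted p = 0.0834).

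Wnt5b, a close relative of Wnt5a, and Wnt9a, a ligand known from joint and skeletal development, had similar profiles in the genotypes once differentiation was under way. Wnt5b was higher in TKO D0 libraries, at 1.46 and 1.14 CPM, against 0.542 and 0.715 CPM in WT D0 libraries (log2 change 1.05 ± 0.23, adjusted p = 0.00169), and it did not pass in a fit of those groups alone (adjusted p = 0.0603) or without TKO D0 replicate 1 (log2 0.84, adjusted p = 0.057). It then stepped up between D2 and D4 by 3.69-fold in TKO cells and 4.16-fold in WT cells. From D2 to D8 its TKO-to-WT differences were between -0.09 and 0.27 on the log2 scale and none passed. Wnt9a passed between genotypes at D2 and on no other day, at 2.81 and 3.25 CPM in TKO libraries and 1.78 and 1.78 CPM in WT libraries (log2 change 0.76 ± 0.19, adjusted p = 0.00413). Its peak at D4 and D6 was between 3.82 and 4.8 CPM over both genotypes, and the groups overlapped there. An opposite-strand gene, Fbxl14, overlaps Wnt5b in the annotation, and whether counting used strand is not given in the sources used here.

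In TPM, the make-up of the 19 mouse Wnt ligand genes changed with the day, as the stacked plot of ligands shows. At D2, Wnt8a held 64.1% and 67.5% of the summed ligand TPM in TKO libraries, against 45.2% and 39.2% in WT libraries. At D4 it held 74.1% and 72.6% in TKO libraries, against 87.3% and 88.6% in WT libraries. Wnt7a and Wnt7b, ligands typical of neural tissue and not members of the set, took over by D6 and D8. At D8 the summed ligand level was 37.1 and 39.6 TPM in TKO libraries, against 142 and 127 TPM in WT libraries. Wnt7b alone was 12.3 and 12.5 TPM in TKO D8 libraries, against 74.2 and 62.7 TPM in WT D8 libraries. Wnt5a and Wnt5b together held less of the sum than Wnt7b at D8 in every library, and Wnt8a, at 8.31% and 13.4% in TKO D8 libraries, was at 0.483% and 0.392% in WT D8 libraries.

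**Figure D1:**
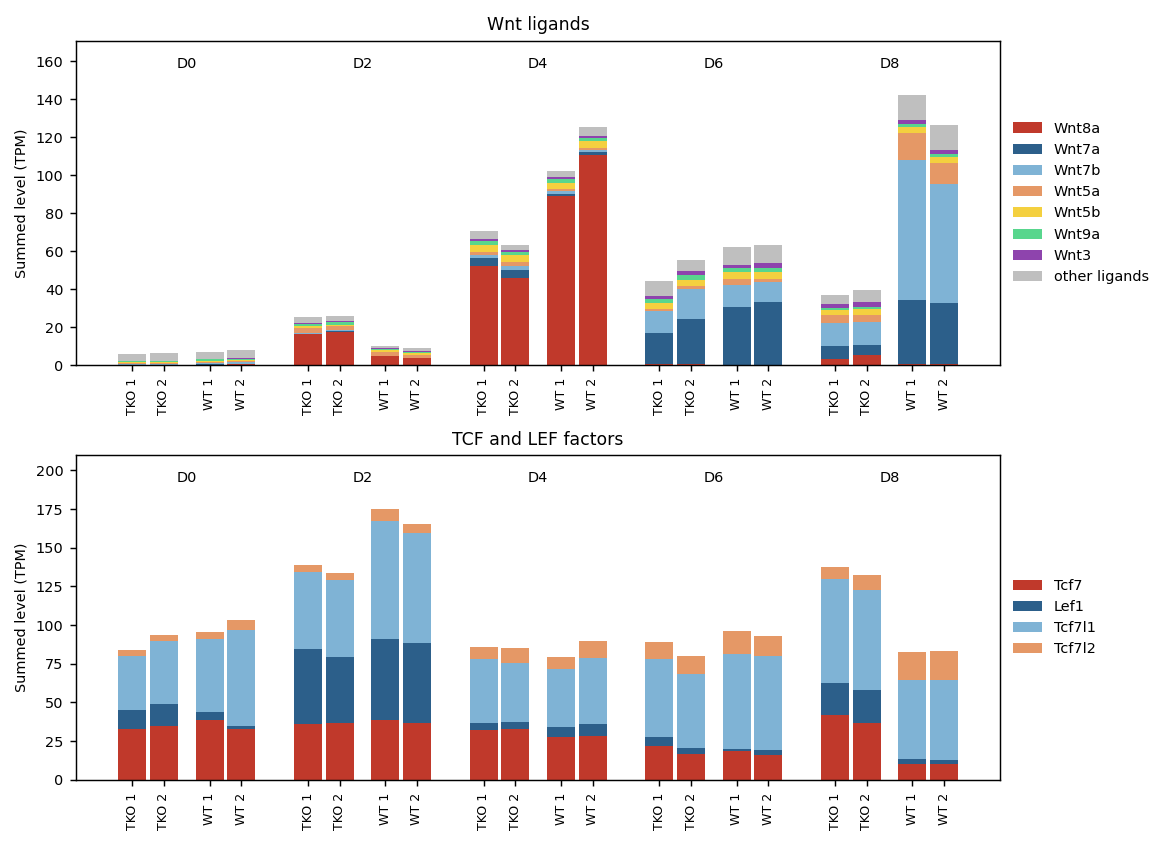
Summed TPM of the 19 Wnt ligand genes (top) and of the 4 TCF and LEF factors (bottom), 1 bar per library, replicates 1 and 2 of TKO left of those of WT at each day. Wnt8a fills most of the D4 bars of both genotypes, Wnt7a and Wnt7b most of the WT D8 bars, and Tcf7 with Lef1 a larger part of the TKO D8 bars than of the WT D8 bars.

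Tcf7 and Lef1, genes for DNA-binding partners of beta-catenin and themselves known targets of the pathway, both ended higher in TKO cells. Both Tcf7 transcripts in the files are annotated with the same protein of 303 amino acids. Forms of the Tcf7 protein, including whether they bind beta-catenin, can therefore not be told apart here. Tcf7 measured 55.9 and 56.7 CPM in TKO libraries at D0, 60 and 57.5 at D2, 44.8 and 44.2 at D4, 27.3 and 21.2 at D6, and 57 and 49.5 at D8. In WT libraries it measured 62.5 and 50.2 CPM at D0, 63 and 62.3 at D2, 40.2 and 40.5 at D4, 22.4 and 20.1 at D6, and 11.1 and 10.6 at D8. The genotypes were close until D6, and then Tcf7 rose in TKO cells (D8 against D6, log2 change 1.13 ± 0.11, adjusted p = 1.97e-07) and fell in WT cells (-0.97 ± 0.12, adjusted p = 2.38e-06). At D8 the TKO level was 4.90-fold the WT level (log2 change 2.29 ± 0.12, adjusted p = 1.32e-11), while the TKO-to-WT differences from D0 to D6 were between -0.09 and 0.19 on the log2 scale and did not pass. The interaction of genotype with D8 against D6 was 2.10 ± 0.16 (adjusted p = 1.31e-08).

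Lef1 had a sharp D2 peak in both genotypes. In TKO libraries it measured 31 and 34.7 CPM at D0, 106 and 99.5 at D2, 8.9 and 7.8 at D4, 5.71 and 6.32 at D6, and 37.3 and 36 at D8. In WT libraries it measured 11.7 and 4.91 CPM at D0, 125 and 117 at D2, 13.4 and 15.9 at D4, 2.46 and 3.11 at D6, and 5.12 and 4.86 at D8. TKO libraries were therefore above WT libraries before and after the peak, and below them at D2 and D4, without overlap on any day, although the D2 difference did not pass (-0.24 ± 0.17, adjusted p = 0.327). The differences that passed were 1.98 ± 0.21 at D0 (adjusted p = 1.15e-06), -0.80 ± 0.22 at D4 (adjusted p = 0.0108), 1.11 ± 0.29 at D6 (adjusted p = 0.00525) and 2.88 ± 0.22 at D8 (adjusted p = 2.93e-09). With counts from length-scaled TPM the D4 and D6 differences did not pass (adjusted p = 0.158 and 0.103), the D4 one did not pass without WT D4 replicate 2 or TKO D4 replicate 2 (adjusted p = 0.0882 and 0.088), and the D6 one did not without WT D6 replicate 1 (adjusted p = 0.0628).

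The 2 WT D0 libraries differed from each other in Lef1 by more than 2-fold, which touches every Lef1 comparison with WT D0. In WT cells D8 was 0.74 ± 0.25 below D0 on the log2 scale (adjusted p = 0.0125), and the change was 0.01 (adjusted p = 0.978) without WT D0 replicate 1. The Lef1 interaction between genotype and the D0-to-D8 change, 0.90 ± 0.31 (adjusted p = 0.0227), was 0.13 (adjusted p = 0.582) without it. It also did not pass without WT D8 replicate 2 or TKO D0 replicate 1 (adjusted p = 0.0641 and 0.0665), with DESeq2 (0.0674) or with the compared groups alone (0.103). The interaction with D8 against D6, which uses no D0 library in its contrast, was 1.76 ± 0.38 (adjusted p = 0.000847) for Lef1.

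Per length, Tcf7l1, the family member known mainly as a repressor in stem cells, was the largest of the 4 factors at D8 in both genotypes, with 67.4 and 65.1 TPM in TKO libraries and 50.8 and 51.7 TPM in WT libraries. Tcf7 and Lef1 together made up 45.5% and 43.7% of the summed TPM of the 4 factors in TKO D8 libraries, against 16.4% and 15.6% in WT D8 libraries. Tcf7l2, the member that prevails in many differentiated tissues, held 5.38% and 7.05% in TKO D8 libraries, against 22.2% and 22.3% in WT D8 libraries. Ctnnb1, which encodes beta-catenin, was 882 and 863 CPM in TKO D8 libraries and 885 and 873 CPM in WT D8 libraries.

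Axin2, the feedback scaffold of the destruction complex, was higher in TKO stem cells and lower in TKO cells in the middle of differentiation. In TKO libraries it measured 21.5 and 22.9 CPM at D0, 17.5 and 19 at D2, 44.8 and 48 at D4, 36.9 and 32.1 at D6, and 32.1 and 35.9 at D8. In WT libraries it measured 15.4 and 15 CPM at D0, 16.2 and 17.4 at D2, 56 and 57.8 at D4, 55.1 and 56.1 at D6, and 36.4 and 35.4 at D8. Both genotypes stepped up between D2 and D4, and WT cells held that level to D6 whereas the D6 level of TKO cells was 0.42 ± 0.08 (log2) lower than their D4 level (adjusted p = 0.000195). Axin2 passed at D0 (log2 change 0.55 ± 0.08, adjusted p = 6.82e-05), D4 (-0.30 ± 0.07, adjusted p = 0.00662) and D6 (-0.69 ± 0.08, adjusted p = 1.46e-06). At D8 the libraries of the genotypes overlapped (-0.08 ± 0.08, adjusted p = 0.38). The D4 call was lost without TKO D4 replicate 1 (log2 -0.25, adjusted p = 0.0852) and with length-scaled TPM counts (-0.35, adjusted p = 0.0519).

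Nkd1, which binds Dishevelled and limits the signal, increased in both genotypes and ended lower in TKO cells. In TKO libraries it measured 5.47 and 5.71 CPM at D0, 9.94 and 10.4 at D2, 21.5 and 24.2 at D4, 34.3 and 38.6 at D6, and 27.1 and 27.4 at D8. In WT libraries it measured 3.8 and 4.48 CPM at D0, 8.29 and 7.75 at D2, 23.8 and 26.8 at D4, 42 and 52.3 at D6, and 44.7 and 48 at D8. The order of the genotypes turned with time, TKO being above WT at D0 and D2 and below it at D6 and D8. The D8 difference was -0.77 ± 0.10 (adjusted p = 2.78e-06) and the D6 difference -0.37 ± 0.10 (adjusted p = 0.00638), and the interaction with D8 against D0 was -1.20 ± 0.18 (adjusted p = 1.98e-05). The smaller D0 and D2 differences, 0.43 ± 0.15 (adjusted p = 0.0264) and 0.34 ± 0.13 (adjusted p = 0.0415), were close to the threshold: the D0 call was lost without WT D0 replicate 1, TKO D0 replicate 1 or TKO D0 replicate 2 (adjusted p 0.0745 to 0.207), and the D2 call without any 1 of the D2, TKO D0 or TKO D8 libraries (adjusted p 0.0506 to 0.201). With length-scaled TPM counts the D0 difference was 0.11 (adjusted p = 0.622), and the D6 call was lost without WT D6 replicate 2 (log2 -0.21, adjusted p = 0.149) or TKO D6 replicate 1 (-0.29, adjusted p = 0.0814) and with length-scaled TPM counts (-0.29, adjusted p = 0.0623).

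Sp5, a zinc finger repressor that is a direct target of beta-catenin and acts with its relative Sp8, was mainly a gene of the stem cell state here. It measured 13.9 and 13.2 CPM in TKO D0 libraries and 7.46 and 5.39 CPM in WT D0 libraries (log2 change 1.08 ± 0.28, adjusted p = 0.00553). By D2 it had fallen to 1.1 and 1.12 CPM in TKO libraries, against 0.504 and 0.379 CPM in WT libraries (log2 change 1.35 ± 0.48, adjusted p = 0.0363, on 32 and 28 counts in TKO and 13 and 13 in WT). It stayed at or below 2.82 CPM in every library from D4 on, and no later day passed between genotypes. The D2 call was lost without any 1 of the 4 libraries concerned (adjusted p 0.0754 to 0.207), and the D0 call without WT D0 replicate 2 (log2 0.86, adjusted p = 0.056).

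**Figure D2:**
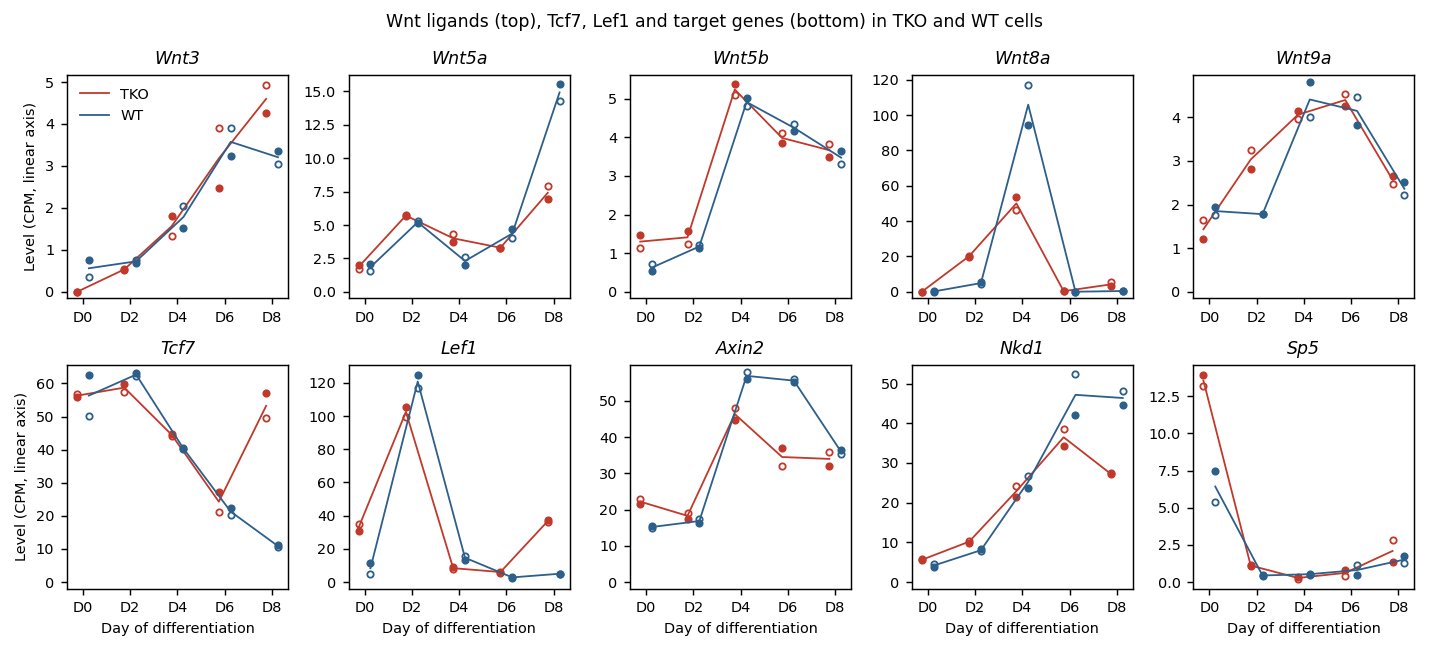
Level in CPM (linear axis from 0) of the 10 genes at D0 to D8 in TKO and WT cells. Filled points are replicate 1, open points replicate 2, and lines join the group means of 2 libraries. Tcf7 and Lef1 separate at D8, Wnt8a pulses at D4, and Nkd1 and Wnt5a end lower in TKO cells.

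Between genotypes, 6 of the 10 genes passed at D0, where 39.3% of all genes tested did. Lef1, Sp5, Wnt5b, Axin2 and Nkd1 were higher in TKO cells (5 genes, background 19.4%) and Wnt3 was lower (background 19.9%). At D2, 4 genes passed (35.3% of all genes), namely Wnt8a, Sp5, Wnt9a and Nkd1, all 4 of them higher in TKO cells (background 18.4%) and 0 lower (background 16.9%). At D4, 4 passed (28.3% of all genes), with Wnt5a higher (background 15.1%) and Wnt8a, Lef1 and Axin2 lower in TKO cells (background 13.2%). With length-scaled TPM counts 1 of the 10 passed at D4. At D6, 4 passed (41.2% of all genes), with Wnt8a and Lef1 higher (background 20.9%) and Axin2 and Nkd1 lower in TKO cells (background 20.3%). At D8, 5 passed (67.5% of all genes), with Wnt8a, Lef1 and Tcf7 higher (background 35.7%) and Wnt5a and Nkd1 lower in TKO cells (background 31.8%). These counts were set beside the background without a test, and at D8 the share of the 10 genes was below it. The 5 calls at D8 passed under every alternative tried.

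**Figure D3:**
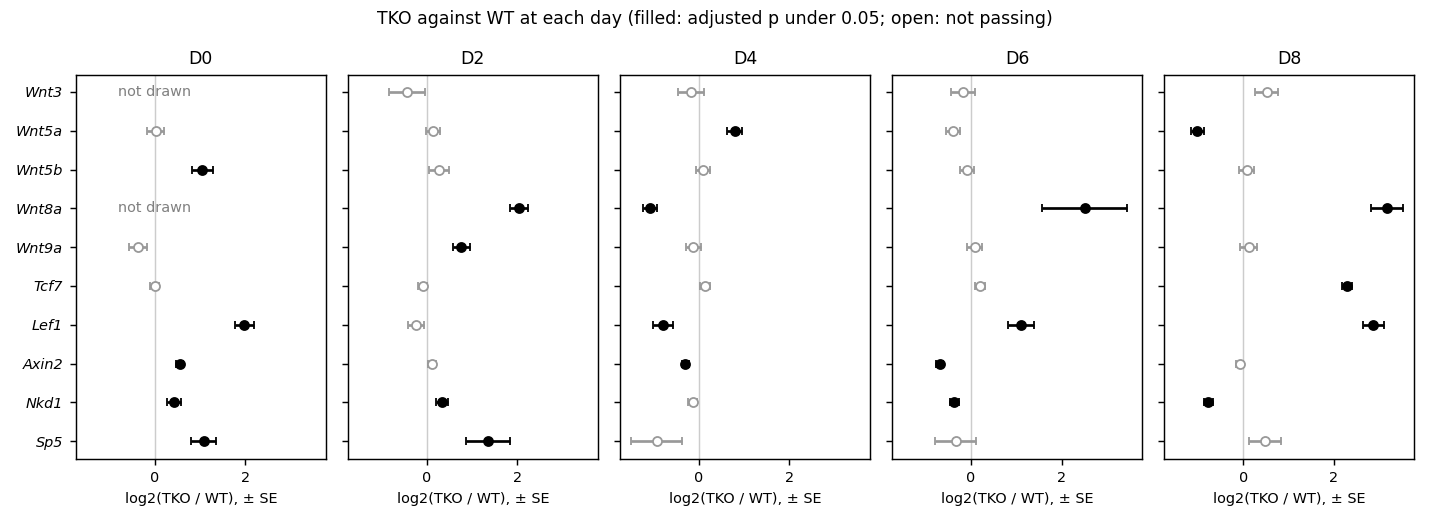
Log2 fold change of TKO against WT with its standard error for the 10 genes at each day, from edgeR. Filled points passed at an adjusted p under 0.05 and open points did not. Wnt3 and Wnt8a at D0 are not drawn because a group had 3 counts or fewer. The values for Lef1 and Wnt8a cross 0 between D2 and D6, and Nkd1 moves from the TKO-high to the TKO-low side.

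Over time, most of the genes changed in both genotypes. Against D0, 8 genes passed at D2, 10 at D4, 10 at D6 and 8 at D8 in TKO cells, where 53.6%, 66.5%, 71.9% and 65.1% of all genes passed. In WT cells the counts were 6, 9, 9 and 8, where 54.7%, 64.8%, 71.1% and 76.8% of all genes passed. Sp5 was lower than at D0 on every later day in both genotypes, and Nkd1 higher. Between D6 and D8, 7 genes passed in TKO cells (50.0% of all genes) and 6 in WT cells (56.9% of all genes). The steps added later gave 10 genes for D2 to D4 in TKO cells (61.9% of all genes) and 9 in WT cells (61.9%), and 6 for D4 to D6 in each genotype (48.1% of all genes in TKO and 53.4% in WT cells). The genotype interaction with the D0-to-D8 change passed for 8 of the 10 genes, against 52.2% of all genes, and that with D8 against D6 for 5, against 49.9%. The joint test over all later days passed for all 10, against 69.0% of all genes. Interactions with the D0-to-D2 and D2-to-D4 steps, also added later, passed for 5 genes (18.4% of all genes) and 4 genes (15.9%). None of these counts was tested against the share of all genes, and the 10 genes were chosen with earlier results known.

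The wider pathway was described with lists of genes by role, chosen with earlier results of these data known. At D0, 19.4% of all genes were higher and 19.9% lower in TKO cells. Secreted inhibitors went both ways. Dkk1, whose product blocks the Lrp co-receptors and which is also a known target, was 5.26 and 5.02 CPM in TKO libraries and 0.287 and 0.292 CPM in WT libraries (log2 change 4.13 ± 0.36, adjusted p = 1.11e-07). Sfrp1 and Sfrp2, which bind Wnt proteins outside the cell, were lower in TKO cells. Sfrp1 was 94.5 and 95.4 CPM in TKO libraries and 165 and 148 CPM in WT libraries (log2 change -0.72 ± 0.07, adjusted p = 1.68e-07), and Sfrp2 was 15.4 and 15.8 CPM in TKO libraries and 29.6 and 21.9 CPM in WT libraries (-0.72 ± 0.11, adjusted p = 4.06e-05). Of 10 inhibitors tested, 4 rose and 2 fell, with a list median of 1.11 against 0 over all genes, while the summed level of the list was lower in TKO libraries, at 158 and 156 CPM, against 214 and 189 CPM in WT libraries. Of 23 other beta-catenin target genes tested at D0, 11 rose, including Sp8, Ascl2 and Notum, and 6 fell, including Id2, with a median of 0.20. Notum, a secreted enzyme that inactivates Wnt proteins, was 39.6 and 43.2 CPM in TKO libraries and 22.3 and 26.4 CPM in WT libraries. T, the primitive streak factor that is a known target, fell, at 0.488 and 0.403 CPM in TKO libraries and 1.31 and 1.2 CPM in WT libraries.

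Genes for making and sensing the ligands gave calls in both directions at D0. Porcn, the enzyme that adds the lipid to Wnt proteins, was lower in TKO cells (log2 change -0.80 ± 0.09, adjusted p = 1.44e-06), as was Wls, which carries them to the cell surface (-1.01 ± 0.17, adjusted p = 0.00013). Of 19 receptors and co-receptors tested, 5 rose, with Fzd1 at 1.02 ± 0.13, and 3 fell, with Fzd7 at -0.40 ± 0.07, which is near the 19.4% higher and 19.9% lower of all genes. Of 25 genes of the beta-catenin core, 2 rose and 11 fell, against the same shares of all genes, with Apc2 (-1.73 ± 0.29) and Bcl9 (-0.79 ± 0.08) lowest, and a median of -0.14.

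At D8, where 35.7% of all genes were higher and 31.8% lower in TKO cells, 8 of the 16 ligands tested fell and Wnt8a rose. Wnt7a was 12.2 and 9.62 CPM in TKO libraries and 49.4 and 48.1 CPM in WT libraries, and Wnt1 was 0.35 and 0.337 CPM in TKO libraries and 2.31 and 2.49 CPM in WT libraries. Of 23 target genes tested, 11 rose and 9 fell in TKO cells, with a median of 0.60 against 0.04 over all genes. The summed level of the target list was lower in TKO libraries, at 758 and 756 CPM, against 919 and 944 CPM in WT libraries. Notum was 10.2 and 11.5 CPM in TKO libraries and 0.484 and 0.54 CPM in WT libraries (log2 change 4.40 ± 0.22, adjusted p = 9.27e-12). Fgf8, a growth factor of the streak and tail bud, was 5.73 and 7.96 CPM in TKO libraries and 1.25 and 1.23 CPM in WT libraries. T was 2.48 and 6.19 CPM in TKO libraries and 1.62 and 0.899 CPM in WT libraries. Lgr5, an R-spondin receptor and target, fell to 1.5 and 1.26 CPM in TKO libraries, against 10.3 and 8.57 CPM in WT libraries, and Sox9 fell too (-1.70 ± 0.16).

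Of 19 receptors and co-receptors, 7 rose and 9 fell at D8, to be read against the 35.7% higher and 31.8% lower of all genes, as are the counts that follow. Ror1, a Wnt5a receptor, and Fzd5 were higher in TKO cells (log2 changes 2.79 ± 0.15 and 2.40 ± 0.13), and Fzd3 and Fzd9 were lower (-1.48 ± 0.09 and -1.07 ± 0.15). Of 20 genes of the planar polarity and calcium branch 6 rose and 13 fell, with the cadherins Celsr2 (-2.04 ± 0.11) and Celsr3 (-1.92 ± 0.11) lowest. Of the 25 core genes, 5 rose and 16 fell, with a median of -0.44.

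**Figure D4:**
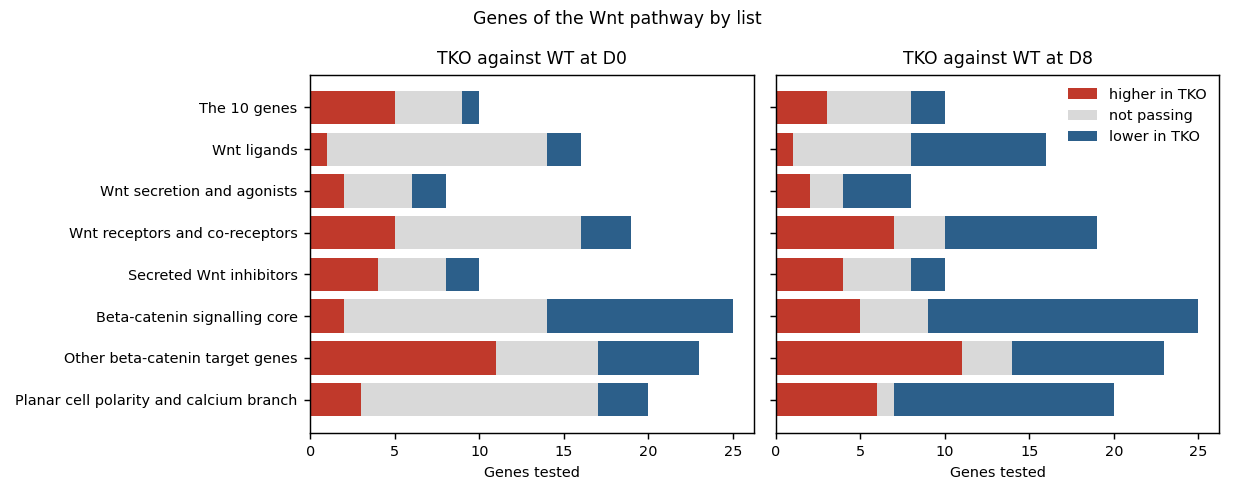
Number of genes tested in each Wnt pathway list that were higher in TKO cells, did not pass, or were lower in TKO cells, at D0 (left) and D8 (right). The top bar holds the 10 genes, and 5 of the 10 are also in the ligand list. Dkk1, Notum, Lgr5 and Fzd7 are each counted in 2 bars, that of the target list and that of another list. Notum is in the list of secretion and agonists although its product inactivates Wnt proteins. The blue part of the ligand bar has 2 genes at D0 and 8 at D8.

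Marker lists of other cell types also differed between genotypes, and only some lists are given for each day. The streak and trophoblast lists share genes with the Wnt target list, such as T, Fgf8, Cdx2 and Ascl2. Summed neural progenitor markers were higher in TKO libraries up to D4. At D0 they were 300 and 290 CPM in TKO and 220 and 234 CPM in WT libraries. At D2 they were 509 and 472 CPM in TKO and 374 and 393 CPM in WT libraries, and at D4 1794 and 1840 against 1543 and 1596 CPM. At D0 (all genes 19.4% higher, 19.9% lower), 9 of 10 endoderm markers rose in TKO cells, with summed levels of 370 and 412 CPM in TKO libraries and 26.3 and 34.5 CPM in WT libraries, where Afp and Ttr were at 0. Of 9 mesenchyme markers tested 2 rose and 4 fell, with sums of 69.3 and 74.0 CPM in TKO D0 libraries and 25.8 and 21.5 CPM in WT D0 libraries. Summed neuron markers were 398.5 and 379.9 CPM in TKO D0 libraries and 207.7 and 262.2 CPM in WT D0 libraries. Summed trophoblast markers were lower in TKO D0 libraries, at 139 and 133 CPM, against 202 and 192 CPM in WT D0 libraries. At D2 (all genes 18.4% higher, 16.9% lower), all 10 endoderm markers rose, with sums of 337 and 448 CPM in TKO libraries and 30.5 and 34.3 CPM in WT libraries, and 7 of 10 neuron markers rose (473 and 432 CPM in TKO libraries, 290 and 296 CPM in WT libraries). At D4 (15.1% higher, 13.2% lower), 6 of 10 endoderm markers rose (116 and 124 CPM in TKO libraries, 94.8 and 93.5 CPM in WT libraries), as did 6 of 10 neural crest markers (56.9 and 57.2 CPM in TKO libraries, 34.1 and 38.7 CPM in WT libraries). Of the 10 neuron markers 6 rose and 1 fell at D4, while their sum was lower in TKO libraries, at 267 and 256 CPM, against 351 and 366 CPM in WT libraries.

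At D6 (20.9% higher, 20.3% lower), 9 of 10 pluripotency markers rose and 1 fell, with sums of 337 and 284 CPM in TKO libraries and 264 and 254 CPM in WT libraries. Of 10 trophoblast markers 8 rose (299 and 280 CPM in TKO libraries, 114 and 108 CPM in WT libraries), 8 of 10 neuron markers rose (1142 and 1457 CPM in TKO libraries, 791 and 713 CPM in WT libraries), and 7 of 10 neural progenitor markers fell and 1 rose (2445 and 2589 CPM in TKO libraries, 3522 and 3351 CPM in WT libraries). At D8 (35.7% higher, 31.8% lower), 9 of 10 pluripotency markers rose and 1 fell (1263 and 1176 CPM in TKO libraries, 272 and 244 CPM in WT libraries), with Pou5f1 at 553 and 500 CPM in TKO libraries and 17.6 and 7.5 CPM in WT libraries. All 10 neural progenitor markers fell (1134 and 1139 CPM in TKO libraries, 2924 and 2998 CPM in WT libraries), as did all 10 neuron markers (918 and 912 CPM in TKO libraries, 3455 and 3492 CPM in WT libraries). Of 10 trophoblast markers 8 rose (378 and 369 CPM in TKO libraries, 205 and 207 CPM in WT libraries). Of 10 primitive streak and mesoderm markers tested 5 rose and 2 fell, with sums of 23.3 and 31.2 CPM in TKO libraries and 19.3 and 19.5 CPM in WT libraries, and Msgn1 was at 0 in TKO D8 libraries. The part of these markers in the Wnt gene differences was not tested, and in bulk RNA fewer cells of a type cannot be told apart from less RNA per cell.

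Across the 20 libraries the levels of some members ran in parallel. As a description of libraries that share days and genotypes, the Pearson r of log2(CPM + 0.5) was 0.94 between Axin2 and Wnt5b, 0.90 between Nkd1 and Wnt5b, 0.84 between Nkd1 and Axin2, and 0.72 between Lef1 and Tcf7. Wnt8a was not close to Axin2 (r = 0.27), and Sp5 ran against Wnt9a (r = -0.71). Of all genes tested, those most like Axin2 were Ppp1r16b (r = 0.974), Svep1 (0.966), Lipg (0.963), Prtg (0.960) and Nedd9 (0.957). Those most like Wnt5b were Prep (0.973), Rassf2 (0.973), Rhobtb3 (0.972), Nsd2 (0.969) and Mum1l1 (0.968).

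Within Wnt5b, kallisto assigned the counts mostly to the transcripts of the distal start at D4, at 100% and 100% in TKO libraries and 100% and 81.7% in WT libraries. At D2 the distal start held 46.2% and 27.5% in TKO libraries and 50.5% and 30.5% in WT libraries, the rest going to the nearer start whose window holds the motif. The TKO D8 libraries stood at 72.6% and 41.9% and the WT D8 libraries at 91.1% and 70.2%. In TKO D8 libraries the rest went to the nearer start (27.3% and 58.1%). In WT D8 libraries the nearer start held 0% and 0%, and the rest (8.86% and 29.8%) went to another annotated start lying between them. These starts share most exons, the replicates disagreed widely, and the gene had 31 to 188 counts in these TKO libraries and 29 to 169 in these WT libraries, so the shares are given without a test.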

How the data were processed

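The authors deposited 1 kallisto table per library with 119414 transcripts. Estimated counts (expected counts) and TPM are as the authors deposited them, TPM from counts and effective lengths, per the file headers. Trim Galore 0.6.2, kallisto and GRCm38 (mm10) are named in the submitters' processing notes. The kallisto version, the transcript set and the strand setting are not given in the sources used here. Libraries were TruSeq Stranded mRNA, per the labels' protocols.

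Transcripts were matched to GENCODE M21 by identifier (116640 matched, 116073 with the same version). The 2774 unmatched ones, with 0.969% to 1.12% of a library's counts, stayed out. Estimated counts were summed per gene for 35896 genes and rounded. The tests used edgeR 4.0.16 on all 20 libraries (quasi-likelihood, TMM, filterByExpr by group), which gave a common BCV of 0.069 with 10 residual df. Comparisons were TKO against WT by day, later days against D0, D8 against D6, and interactions. Steps between D2, D4 and D6 and their interactions were added after seeing the data. The members and lists were chosen with earlier results of these data known.

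Named in the text were all 10 members and, of each pathway list at D0 and D8, members among the 3 highest and 3 lowest of those that passed at 2 CPM or more in a group, plus genes whose role the text needs, chosen after their values were seen, and the 5 genes most like Axin2 and Wnt5b by Pearson r. At most 3.96% of the 31-mers of a member occur in the same orientation in transcripts of other genes. Reverse complements were not searched, so this does not cover opposite-strand genes such as Fbxl14. Intervals (95%) and the floor of 3 counts reflect counting error alone. Tested on simulated data of 18161 genes for TKO against WT at D0, the fit recovered 60 of 67 seeded changes at 1.5-fold, 65 of 67 at 2-fold and 66 of 66 at 4-fold, with 8 false calls. The simulation gave every gene the same spread and every group the WT D0 means, and it seeded 200 genes above 1 CPM. It therefore does not cover genes under that level, such as Wnt3 and Wnt8a at D0, or the wider replicate spread of WT D0. Alternatives were a replicate block, RLE scaling (relative log expression), no filter on low counts, counts from length-scaled TPM, DESeq2 1.42.0, the compared groups alone, and leaving out each library. A group left with 1 library is assumed to vary like the others.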

Additional observations from a re-analysis of the deposited data

Results flagged for a closer look

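Between D0 and D8 the change differed between genotypes, by the interaction term of edgeR, for 8 of the 10 genes. That term passed for 52.2% of all genes tested. The difference in log2 change (TKO minus WT) was 4.96 for Wnt8a, 2.29 for Tcf7 and 0.90 for Lef1, and it was -1.20 for Nkd1, -1.03 for Wnt5a, -0.97 for Wnt5b and -0.62 for Axin2. That of Wnt3 was 7.65, a fitted value that depends on the prior count because TKO D0 libraries had 0 counts. The Wnt8a value rests on few D0 counts and was 3.43 (adjusted p = 0.227) without WT D0 replicate 2, and the Wnt5b call was lost without replicate 1 of either D0 group (adjusted p = 0.0601 and 0.079). The Lef1 call was lost without WT D0 replicate 1, WT D8 replicate 2 or TKO D0 replicate 1 (adjusted p 0.0641 to 0.582).

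Between D6 and D8 the interaction passed for Tcf7 (2.10), Lef1 (1.76), Axin2 (0.61), Wnt5a (-0.60) and Nkd1 (-0.40). Tcf7 rose in TKO cells and fell in WT cells over that step, whereas Axin2 was nearly level in TKO cells (log2 change -0.02 ± 0.08) and fell in WT cells (-0.63 ± 0.08). Between D2 and D4, a step added after seeing the data, it passed for Wnt8a (-3.12), Sp5 (-2.27), Wnt9a (-0.88) and Axin2 (-0.41). Of these, the Sp5 and Wnt9a values lost their calls when any 1 of the D2 or D4 libraries was left out, except TKO D2 replicate 1 and WT D4 replicate 2 for Wnt9a, and Sp5 also without either TKO D0 library or WT D8 replicate 2 (adjusted p 0.0501 to 0.141). The Axin2 value lost its call without WT D2 replicate 1, WT D4 replicate 2, TKO D2 replicate 2 or TKO D4 replicate 1 (adjusted p 0.0604 to 0.0998). The D6-to-D8 value of Wnt5a lost its call without WT D6 replicate 2, WT D8 replicate 1, either TKO D6 library or TKO D8 replicate 1 (adjusted p 0.0632 to 0.115), and that of Nkd1 without WT D6 replicate 1, WT D8 replicate 2, TKO D6 replicate 2 or either TKO D8 library (adjusted p 0.0682 to 0.193).

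Between D0 and D2, also added, the interaction was 3.82 for Wnt8a, 1.13 for Wnt9a, -0.43 for Axin2 and -2.22 for Lef1. That of Wnt3, 6.69, again depends on the prior count because TKO D0 libraries had 0 counts, and that of Wnt8a rests on few D0 counts. Lef1 rose 3.12-fold in TKO cells and 14.5-fold in WT cells over that step. Calls at this step were lost for Wnt8a without WT D0, WT D2, TKO D0 or TKO D2 replicate 2 (adjusted p 0.0521 to 0.517), for Axin2 without WT D2 replicate 2, TKO D0 replicate 2 or TKO D2 replicate 1 (0.0799 to 0.108), and for Wnt9a without TKO D0 replicate 1 (0.0527).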

How the results depend on the processing

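Of 4330 values of genes that passed, recomputed under the alternatives, 4179 kept direction and call, 150 kept direction and lost the call, and 1 turned: Lef1 at D8 against D0 in WT cells, 0.01 without WT D0 replicate 1 and -1.24 without WT D0 replicate 2. Most of these values come from leaving out 1 library. That library was often in neither compared group, so a value could then hardly change and its agreement says little. With length-scaled TPM counts 151 values kept the call and 16 lost it, and with the compared groups alone 145 kept it and 10 lost it. Counts of members passing changed by over 1.5 times with length-scaled TPM counts at D4 between genotypes (1, main 4), for the interaction with D8 against D6 (3, main 5) and with D4 against D2 (1, main 4), and with the compared groups alone for the interaction with D2 against D0 (3, main 5). The cause was not tested.

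Leaving out 1 library at a time gave 4 to 6 members between genotypes at D0, 2 to 5 at D2, 3 to 4 at D4, 2 to 5 at D6 and 5 to 6 at D8. Later days against D0, from D2 to D8, gave 7 to 8, 10, 9 to 10 and 8 in TKO cells and 5 to 6, 9, 9 and 7 to 9 in WT cells. D8 against D6 gave 6 to 8 in TKO and 4 to 7 in WT cells, D4 against D2 gave 8 to 10 and 9, and D6 against D4 gave 4 to 7 and 5 to 6. Interactions gave 6 to 9 (D8 against D0), 3 to 5 (D8 against D6), 3 to 5 (D2 against D0), 1 to 7 (D4 against D2) and 9 to 10 (joint). The interaction with D4 against D2 gave 7 without either WT D0 library and 1 to 2 without either WT D2 or TKO D4 library or TKO D2 replicate 2, that with D2 against D0 gave 3 without WT D2 replicate 2 or TKO D0 replicate 2, and that with D8 against D6 gave 3 without TKO D8 replicate 1. The D2 count between genotypes was 2 without any 1 of the 4 D2 libraries, and the D6 count 2 without WT D6 replicate 1 or TKO D6 replicate 1.

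Same-numbered libraries showed little joint deviation (correlation -0.08 to 0.10 over 45 pairs of groups, 1 of them over 0.1, with TKO and WT D6 at 0.10). The numbers thus gave no clear sign of pairing, but a correlation over all genes cannot exclude a shared culture or preparation. With the replicate block the counts between genotypes were 6, 4, 4, 4 and 5 from D0 to D8, and the 2 lost calls were Wnt5b at D6 against D4 in TKO cells (-0.40, adjusted p = 0.0554) and the Sp5 interaction with D4 against D2 (-2.27, adjusted p = 0.0536). Depth limits Wnt3, Wnt8a at D0 and D6, and Sp5 after D0.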
